A study of Mus musculus with 9 samples.

Results

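Malat1-poor droplets were barcodes with at least 500 UMIs (counted RNA molecules) outside the mitochondrially encoded mt- genes, of which Malat1 made up under 1.5%. They numbered 4869 of the 33000 barcodes in 9 single-nucleus Drop-seq libraries of mouse ventricles, and 18.3% of the 26639 barcodes kept. The other kept barcodes were 19307 Malat1-rich droplets, with Malat1 at 3% or more, and 2463 droplets between these limits. The members were chosen by measured values, the UMIs of Malat1 and of all genes in each droplet, so every gene set between Malat1-poor and Malat1-rich droplets is given as a description, with no test. There were 3 libraries a group, all from C57BL6/J mice. KO P10 hearts (ERRalphaKO/ERRgammaKO) and Ctrl P10 hearts (ERRalphaHet/ERRgammaWT) were taken at postnatal days 9 to 10, and Ctrl P6 hearts (ERRalphaHet/ERRgammaWT) at postnatal day 6. The controls thus carried 1 null allele of ERRα, and no fully wild-type heart was analysed here. ERRα and ERRγ, encoded by Esrra and Esrrg, are orphan nuclear receptors and activate many genes that heart mitochondria need to make ATP.

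Malat1 is a long noncoding RNA that stays in the nucleus, in speckles rich in splicing factors, and it is among the most abundant polyadenylated RNAs of most nuclei. Spliced messenger RNA leaves the nucleus, while unspliced transcripts of long genes are held in it and offer poly(A) stretches within their introns to the capture primer. Cardiac muscle cells are filled with sarcomeres and mitochondria, and their cytoplasm holds much messenger RNA for both. In preparations of nuclei, pieces of cytoplasm, whole or broken cells and free RNA can share droplets with nuclei or fill droplets of their own.

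The deposited libraries held 2608067 to 5769630 UMIs. KO P10 1 stood apart, since its kept droplets had a median Malat1 share of 1.75%, against 5.84% and 5.2% in KO P10 2 and 3 and 7.02% to 14.4% in the control libraries. KO P10 1 gave 35.5% of all Malat1-poor droplets. KO P10 2 shared 464 barcodes of at least 500 UMIs with KO P10 1, of which 263 were Malat1-poor, and these were left out of KO P10 2, while other pairs of libraries shared at most 12 barcodes. The mt- genes made up 32.4% of the UMIs of Malat1-poor droplets in Ctrl P10 1 and 1.26% to 22.7% in the other libraries. Hearts were fresh or flash frozen, with no record of which library was which, and no label ties each library to its own animal, so p-values measure the spread between these libraries, which may be technical. Shares of UMIs below leave mt- genes and Malat1 out of the total.

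Most Malat1-poor droplets were led by cardiac muscle markers, a rule that cannot tell muscle cells or their pieces from free RNA. Cardiomyocyte markers took a larger share of UMIs than any of 10 other marker lists in 98.3% ± 2.19 of KO P10 Malat1-poor droplets, 99.3% ± 0.738 of Ctrl P10 ones and 90% ± 8.18 of Ctrl P6 ones (SD, n = 3 libraries each). Among Malat1-rich droplets these shares were 93.8% ± 3.94, 89.9% ± 6.58 and 79.7% ± 2.36. Fibroblast markers led in 3.01% of the Malat1-poor droplets of KO P10 1, in 7.14% of those of Ctrl P6 2 and in 10.5% of those of Ctrl P6 3. Endothelial markers led in 4.08% and 6.39% in the same Ctrl P6 libraries. No Malat1-poor droplet was led by pericyte, lymphocyte, neutrophil, platelet, epicardial or glial markers.

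Malat1-poor droplets made up 47.6%, 17.5% and 24.2% of the kept droplets of KO P10 1, 2 and 3. They made up 25.9%, 10.7% and 5.47% in Ctrl P10 1, 2 and 3, and 4.57%, 11.1% and 10.7% in Ctrl P6 1, 2 and 3. The widest 95% Wilson interval of a library was 24.1% to 27.8%, so counting error was small beside the spread between libraries, and it covers counting error only. The mean was 29.7% ± 15.8 in KO P10 and 14% ± 10.6 in Ctrl P10 (SD, n = 3 each), a difference of 15.7 percentage points with an exact two-sided permutation p of 0.3. Ctrl P10 exceeded Ctrl P6 (8.8% ± 3.67) by 5.21 points with an exact p of 0.6, and both were 0.6 after Benjamini-Hochberg adjustment over the 2 comparisons. Neither difference exceeded the spread between libraries, and 3 libraries against 3 cannot give a p under 0.1. Without Ctrl P10 1 the difference between Ctrl P10 and Ctrl P6 was -0.737 points, and without KO P10 1 that between KO P10 and Ctrl P10 was 6.79 points. How the submitters chose the barcodes they deposited is not given in the sources used here, and the number kept per library bears on these shares.

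**Figure D1:**
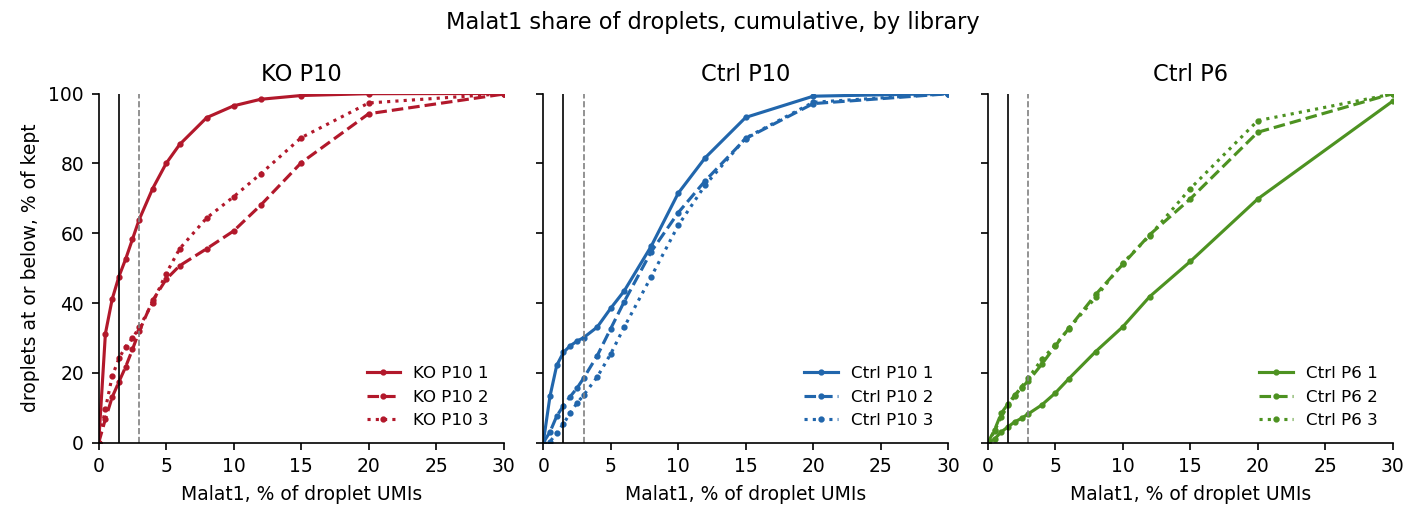
Cumulative percent of kept droplets (vertical axis) at or below each Malat1 share of the UMIs outside mt- genes (horizontal axis, percent), 1 panel per group and 1 line per library. The solid vertical line is the 1.5% limit and the dashed one the 3% limit; at the solid line KO P10 1 stands at 47.6%, and the control libraries lie between 4.57% and 25.9%.

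These droplets held more molecules than the Malat1-rich ones, by the median, in every library except KO P10 2. Their median was 969.5, 789.5 and 813 UMIs in KO P10 1 to 3, 897, 1162 and 1044 in Ctrl P10 1 to 3, and 998, 1082 and 1014 in Ctrl P6 1 to 3, against 751 to 954 in Malat1-rich droplets. Thinned to 500 UMIs each, they showed a median of 343 to 400.0 genes, against 344 to 392 in Malat1-rich droplets. Malat1 made up 0.367% to 0.944% of their summed UMIs and 6.06% to 15.4% of those of Malat1-rich droplets. Single droplets reached 48569 UMIs in Ctrl P6 2 and 41912 in KO P10 1. Droplets in the top 5% of Scrublet doublet scores of their library made up at most 3.53% of Malat1-poor droplets of a library, and 4.19% to 7.51% of Malat1-rich ones.

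RNA of the mitochondrial and contractile machinery filled more of the Malat1-poor droplets in all 9 libraries. Nucleus-encoded subunits of the respiratory chain, the electron transport complexes and ATP synthase of the inner mitochondrial membrane, made up 4.96% ± 0.93 of UMIs in Malat1-poor and 1.63% ± 0.376 in Malat1-rich droplets of KO P10. The shares were 10.5% ± 2.9 and 2.3% ± 0.818 in Ctrl P10, and 13% ± 0.628 and 3.05% ± 0.362 in Ctrl P6 (SD, n = 3 libraries each). The ratio of the share in Malat1-poor to that in Malat1-rich droplets was 2.94 to 5.37 over the libraries. It was 2.76 to 4.78 for creatine kinases, myoglobin and ATP exchange, 2.24 to 3.6 for fatty acid oxidation, 2.07 to 3.48 for the TCA cycle with pyruvate dehydrogenase, and 2.19 to 3.74 for glycolysis. Cytosolic ribosomal proteins had a ratio of 2.14 to 4.15, and translation factors, which start and lengthen protein chains on ribosomes, 1.78 to 2.93. Sarcomere and Z-disc genes had a ratio of 1.38 to 2.17, nearer to 1 than the metabolic lists.

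RNAs of the nucleus were scarce in the same droplets. Nuclear noncoding RNAs other than Malat1, a list with Neat1, Kcnq1ot1 and Mhrt, made up 0.0998% ± 0.0273 of UMIs in Malat1-poor and 0.772% ± 0.0731 in Malat1-rich droplets of KO P10, with ratios of 0.0841 to 0.16 over all libraries. Neat1, the scaffold of nuclear paraspeckles, had 117, 39.2 and 80.4 UPM (UMIs per 1000000 UMIs summed over the droplets) in Malat1-poor droplets of KO P10 1 to 3, 22.2, 66 and 16.3 in Ctrl P10 and 30.9, 129 and 119 in Ctrl P6. In Malat1-rich droplets it had 1814, 1602 and 2872 UPM in KO P10, and 599.7 to 1872 in the control libraries. All 9 libraries thus had less Neat1 in Malat1-poor droplets, with a mean log2 ratio of -4.43. Kcnq1ot1, an imprinted antisense RNA that silences neighbouring genes, had a mean log2 ratio of -3.24. Mhrt, a nuclear noncoding RNA transcribed beside Myh7 in heart muscle, had one of -3.33. Gas5, the spliced host transcript of small nucleolar RNAs, was higher in Malat1-poor droplets in only 5 of 9 libraries, with a mean log2 ratio of 0.09.

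Gene length divided the 2 kinds of droplet. Genes that span 100 kb or more in the genome gave 14% ± 1.45 of UMIs in Malat1-poor and 35.2% ± 2.58 in Malat1-rich droplets of KO P10, 14.5% ± 1.99 and 40.3% ± 5.58 in Ctrl P10, and 11.5% ± 0.554 and 27.6% ± 3.09 in Ctrl P6. Genes under 10 kb gave 32% ± 2.94 and 15.4% ± 1.64 in KO P10, 29.9% ± 4.23 and 11.7% ± 2.82 in Ctrl P10, and 38.4% ± 1.18 and 19% ± 2.02 in Ctrl P6. The gene span at which the median UMI lay was 15.4 to 26.4 kb in Malat1-poor and 32.9 to 89 kb in Malat1-rich droplets. Of 925 genes under 10 kb with at least 50 UPM, 618 were higher in Malat1-poor droplets in all 9 libraries and 51 lower, with a median log2 ratio of 1.13. Of 1243 genes of 100 kb or more, 13 were higher in all 9 and 1018 lower, with a median of -1.37. Over all 5065 genes with at least 50 UPM, 1334 were higher in all 9 and 2068 lower, with a median of -0.33. Exonic and intronic reads were counted together in the deposited tables, so spliced and unspliced RNA of a gene cannot be told apart here.

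Genes of cardiac muscle ranged from well above to far below their level in Malat1-rich droplets. Ndufa4, a subunit of cytochrome c oxidase that spans 7.21 kb, had 1005, 936 and 1350.2 UPM in Malat1-poor droplets of KO P10, 1693, 3673 and 3159 in Ctrl P10 and 3833, 3635 and 3532 in Ctrl P6. In Malat1-rich droplets it had 249.5 to 418 in KO P10 and 253 to 766 in the control libraries, and the mean log2 ratio was 2.20. Fabp3, the fatty acid carrier of the muscle cytosol, had a mean log2 ratio of 2.12, and Mb, myoglobin, which stores oxygen, one of 2.10. The ratio was 1.94 for Actc1, cardiac actin, and 1.09 for Tnnt2, cardiac troponin T, both higher in Malat1-poor droplets in 9 of 9 libraries. It was 0.41 for Myh6, the main myosin heavy chain of the adult mouse heart, which was higher in 7 of 9 libraries. Ttn, titin, spans 279 kb and was higher in Malat1-poor droplets in 3 of 9 libraries, with a mean log2 ratio of -0.36. Long genes of calcium handling lay far on the other side. Ryr2, the calcium release channel, at 554 kb had a mean log2 ratio of -2.15, and Slc8a1, the sodium-calcium exchanger, at 365 kb had one of -4.10. Esrrg, at 606 kb, had one of -2.95, and Ppara, a receptor for fatty acids, at 67.8 kb had one of -2.79.

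The genes with the most UMIs in these droplets were mostly those of sarcomeres, with Nppa first in KO P10 and Mb and Fabp3 among them, as counts per gene with no correction for length. Nppa, Tnnt2, Myh6 and Ttn led in KO P10, Tpm1, Myh6, Tnnt2 and Mb in Ctrl P10, and Tnnt2, Myh6, Myl2 and Fabp3 in Ctrl P6. Hbb-bs, a globin of red blood cells, was among the 10 highest in KO P10, with 8889, 21160.1 and 6004 UPM. Genes were then ranked by ratio if they had at least 200 UPM in the Malat1-poor sum of every library of a group. Genes scarce in Malat1-poor droplets could therefore not appear. Of the genes ranked, those furthest above their level in Malat1-rich droplets were mostly short respiratory chain genes in KO P10. Of the first 12 among 555 genes there, 8 belonged to that list, with Ndufb9, Cox5a and Cox5b in the first 4. How many of the list's 79 members are among the 555 is not given here. Banf1, which binds DNA to the nuclear envelope, was also among these 12 in KO P10. In Ctrl P6 the first 3 were Gm14539, Gm11273 and Gm12338, the first and last of them processed pseudogenes.

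**Figure D2:**
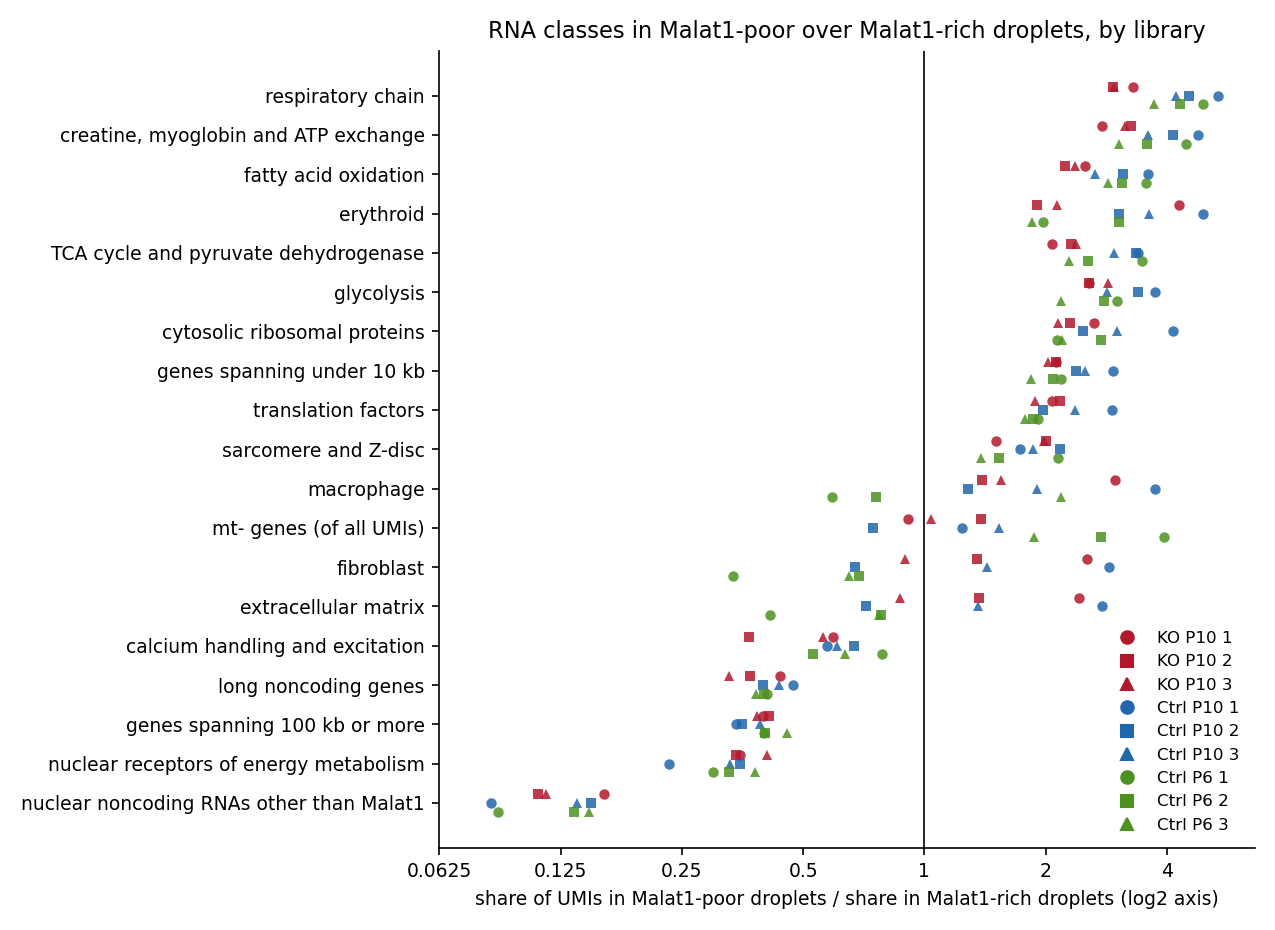
Share of UMIs in Malat1-poor droplets divided by that in Malat1-rich droplets of the same library (horizontal axis, log2 scale) for 19 classes of RNA (rows), with KO P10 in red, Ctrl P10 in blue and Ctrl P6 in green; circle, square and triangle are libraries 1, 2 and 3. Respiratory chain genes lie at 2.94 to 5.37 and nuclear noncoding RNAs at 0.0841 to 0.16, while fibroblast markers lie on both sides of 1.

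The share of respiratory chain RNA shifted gradually with Malat1 and had no step at 1.5%. In Ctrl P10 the respiratory chain made up 11.2% of UMIs in droplets with Malat1 under 0.5%, 9.56% at 1% to 1.5%, 8.97% at 1.5% to 2%, 3.93% at 3% to 5% and 1.76% at 10% or more. In KO P10 the values for the same bins were 5.34%, 4.11%, 3.57%, 2.13% and 1.33%, and in Ctrl P6 they were 14.9%, 11%, 9.98%, 4.4% and 2.71%. Pooled over all libraries, the 501 droplets just inside the limit, at 1.25% to 1.5%, had a median of 769 UMIs. Of their UMIs, 7.52% were respiratory chain and 17.1% came from genes of 100 kb or more. The 418 just outside the limit, at 1.5% to 1.75%, had 762 UMIs, 6.85% and 18.2%. The mix of libraries may differ between the 2 sides. Some classes turned back along the scale. Sarcomere and Z-disc genes made up 14.1% under 0.5% Malat1, 6.51% at 3% to 5% and 8% at 10% or more in KO P10, and 10.9%, 3.21% and 7.29% in Ctrl P6. Fibroblast markers in Ctrl P6 had 0.158% under 0.5% Malat1, 1.13% at 3% to 5% and 0.289% at 10% or more.

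**Figure D3:**
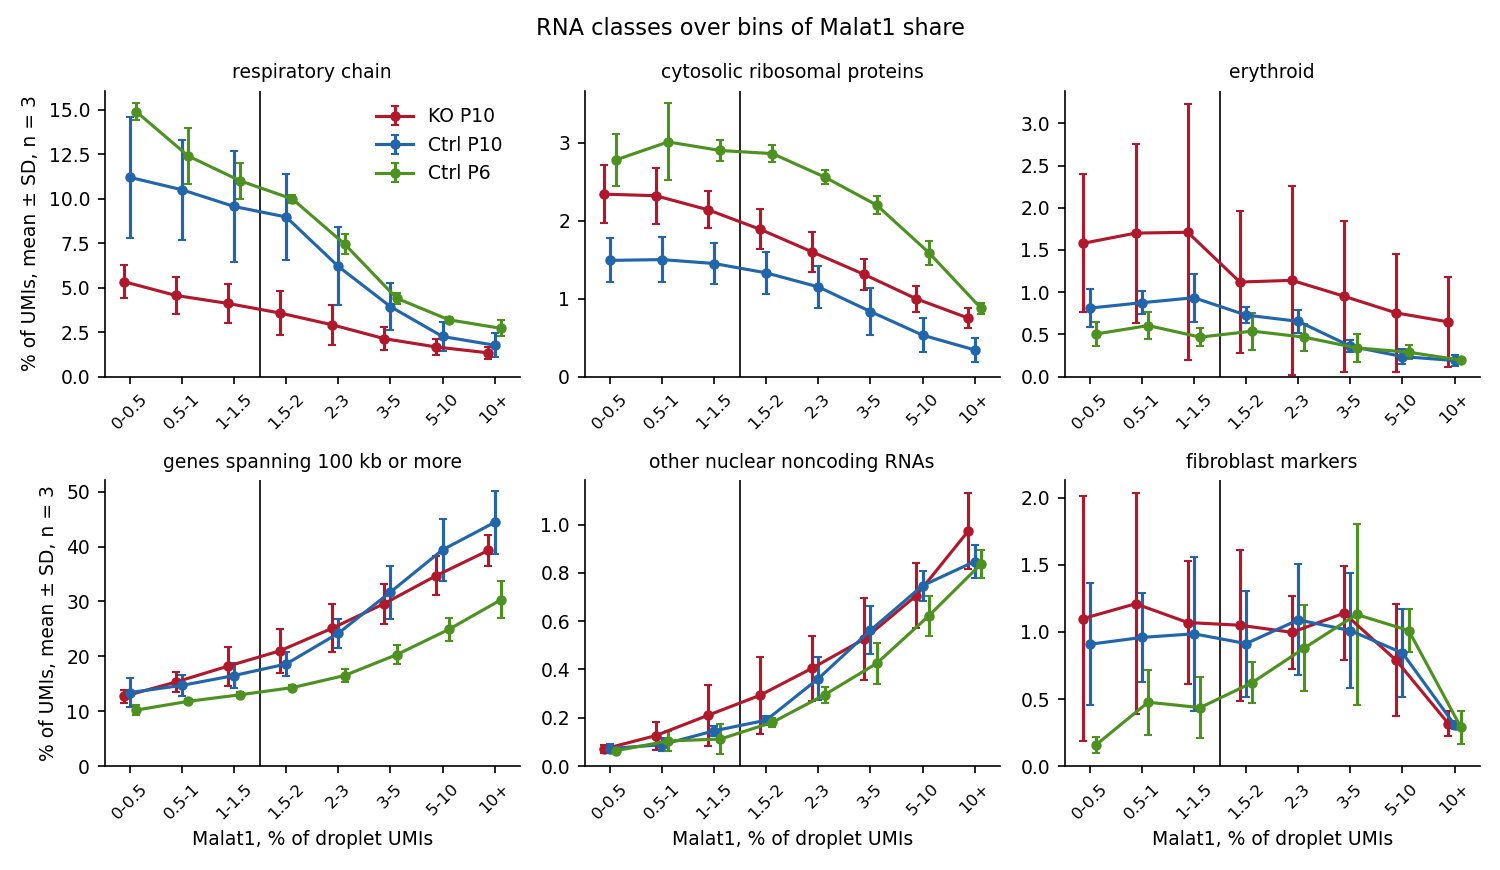
Percent of UMIs (vertical axis, mean ± SD over 3 libraries) from 6 classes of RNA in 8 bins of the Malat1 share (horizontal axis), with KO P10 in red, Ctrl P10 in blue and Ctrl P6 in green. The vertical line marks 1.5% Malat1; the respiratory chain panel runs down from 11.2% to 1.76% in Ctrl P10 and from 5.34% to 1.33% in KO P10, and genes of 100 kb or more run the other way.

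RNA of other cell types differed by list in how it was spread among the droplets. Fibroblast markers made up a median of 1.09% of a Malat1-poor droplet's UMIs in KO P10 and 0.838% in Ctrl P10, and the 10% of droplets richest in them held 22.3% and 23.2% of these UMIs. In Ctrl P6 the median was 0.151% and the richest 10% held 56%. The richest 10% held 35.4%, 32.4% and 99.0% of macrophage UMIs in KO P10, Ctrl P10 and Ctrl P6, where the markers were scarce. Erythroid RNA, chiefly globins, made up 1.43%, 2.76% and 0.854% of the summed UMIs in KO P10 1 to 3, 0.907%, 0.991% and 0.701% in Ctrl P10 and 0.553%, 0.654% and 0.381% in Ctrl P6. Its share was 1.85 to 4.91 times that in Malat1-rich droplets, higher in all 9 libraries, and the richest 10% of droplets held 20.9% to 23.7% of it by group. Macrophage markers were higher in Malat1-poor droplets in 7 of 9 libraries, fibroblast and extracellular matrix genes in 4, and mt- genes in 7, with ratios of 0.744 to 3.93 for mt- genes. Lymphocyte, neutrophil, platelet, epicardial and glial lists each reached at most 0.033% of the UMIs of Malat1-poor droplets in any library.

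In KO P10 Malat1-poor droplets, 18 of 78 respiratory chain genes and 8 of 23 TCA cycle genes were lower than in Ctrl P10 ones, beside 1.57% of all genes, while 8 of 19 fetal heart genes and 12 of 66 ribosomal protein genes were higher, beside 1.44%. Counts were summed per library over the droplets and fitted with edgeR's quasi-likelihood test, which gave 129406 to 2788602 UMIs a library, and fewer cells of a type and less RNA per cell cannot be told apart in such sums. Of 8800 genes tested, 127 (1.44%) rose and 138 (1.57%) fell at a Benjamini-Hochberg adjusted p under 0.05, with a median log2 fold change of -0.00 over all genes. Leaving out 1 of the libraries compared moved the 265 calls to 85 without Ctrl P10 3, 155 without KO P10 2, 155 without KO P10 3, 413 without Ctrl P10 1 and 472 without KO P10 1. Keeping the shared barcodes in KO P10 2 gave 500. Of the 265 genes, 215 were called without KO P10 1 as well, and 263 in cardiomyocyte-led droplets alone.

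Esrra, 1 of the 2 targeted genes, was nearly absent from KO P10 Malat1-poor droplets. It had 2, 3 and 2 UMIs in KO P10 1 to 3, against 57, 57 and 14 in Ctrl P10 and 8, 41 and 24 in Ctrl P6. Over the libraries this was 7 UMIs of 4345627 in KO P10 against 128 of 1739400 in Ctrl P10, a level of 2.19% of the control (exact 95% interval 0.863% to 4.64%, counting error only). In Malat1-rich droplets 84 UMIs of 5603471 in KO P10 stood against 596 of 8007207 in Ctrl P10, a level of 20.1% (15.8% to 25.3%). The fall passed in both kinds of droplet (edgeR adjusted p = 3.7e-05 and 0.000884), and its difference between them did not (adjusted p = 0.262). Esrrg had 223, 37 and 80 UMIs in KO P10 against 50, 90 and 39 in Ctrl P10 Malat1-poor droplets, with a log2 fold change of -0.51 ± 0.32 (SE, adjusted p = 0.456). Which part of Esrrg was deleted is not given in the labels, so its counts check nothing.

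Respiratory chain genes took 4.30%, 4.56% and 6.02% of UMIs in KO P10 Malat1-poor droplets, against 7.29%, 12.9% and 11.3% in Ctrl P10 ones. Of 78 members tested, 18 fell and 0 rose, beside 1.57% of all genes that fell, and the members' median log2 fold change was -0.92. The largest fall was that of Cox7a1, the muscle form of a cytochrome c oxidase subunit, with 154, 148 and 239 CPM in KO P10 against 929, 1912 and 1658 CPM in Ctrl P10. Its log2 fold change was -3.05 ± 0.37 (SE, adjusted p = 0.000367), and CPM here are edgeR's values, scaled with its library factors. Ndufa1, a subunit of complex I, had 352, 294 and 305 CPM in KO P10 against 878, 1580.2 and 1608 in Ctrl P10 (log2 fold change -2.09 ± 0.34, adjusted p = 0.00211). Uqcr11, of complex III, had 768, 665 and 759.9 CPM against 1994, 3517 and 2449.7 (-1.86 ± 0.34, adjusted p = 0.00488). Cycs, the electron carrier cytochrome c, fell by 1.83 on the log2 scale. Ndufa4 and Cox5a, among the most counted of the list, had log2 fold changes of -1.30 ± 0.37 and -0.79 and did not pass (adjusted p = 0.0621 and 0.318), nor did Cox4i1 (adjusted p = 0.149). The count of 18 was 5 without Ctrl P10 3, 7 without Ctrl P10 2, 6 without KO P10 2, 11 without KO P10 3, 11 without Ctrl P6 2, 9 without Ctrl P6 3, 38 without Ctrl P10 1 and 18 without KO P10 1; it was 32 with the shared barcodes kept, 35 in DESeq2 and 22 in cardiomyocyte-led droplets.

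Fuel genes that feed the respiratory chain fell with it in part. Of 23 genes of pyruvate oxidation and the TCA cycle, which burn acetyl-CoA, 8 fell and 0 rose, beside 1.57% of all genes that fell and 1.44% that rose, with a median of -1.03. Sucla2, a subunit of succinate-CoA ligase, had 168, 225 and 244 CPM in KO P10 against 548, 711 and 559.6 in Ctrl P10 (-1.52 ± 0.30, adjusted p = 0.00757). Mdh2, mitochondrial malate dehydrogenase, had 512, 761 and 921 CPM in KO P10 against 1317, 2757 and 1952 CPM in Ctrl P10, groups that did not overlap. The 8 were 2 without Ctrl P10 3, 3 without Ctrl P10 2, KO P10 2, Ctrl P6 2 or Ctrl P6 3, 4 without KO P10 1, and 14 without Ctrl P10 1. Of 30 genes of fatty acid oxidation, which supplies most of the adult heart's energy, 5 fell (3 without Ctrl P10 3 or KO P10 3, 8 without Ctrl P10 1) and 1 rose, against the same shares of all genes. Acads, which oxidises short-chain fatty acids, had 37.7, 64.6 and 58.7 CPM in KO P10 against 188, 259 and 162 CPM in Ctrl P10 (-1.98 ± 0.34, adjusted p = 0.00311). Acaa2, Hadhb, Cpt1b and Plin5 were the other 4 that fell. Acot1, which releases fatty acids from CoA, was the 1 that rose (1.23, adjusted p = 0.0412), and it lost its call without any 1 of 7 libraries.

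Further genes outside those lists were lower in KO P10 Malat1-poor droplets. Ckmt2, the mitochondrial creatine kinase of muscle, had 197, 409 and 515 CPM in KO P10 against 1319, 2378 and 1923 CPM in Ctrl P10 (-2.33 ± 0.40, adjusted p = 0.00319). Mfn1, which fuses mitochondria, had 49, 37.5 and 27.6 CPM against 178, 174 and 169.9 CPM (-2.15 ± 0.29, adjusted p = 0.000735). Tfrc, the transferrin receptor that brings iron into cells, had 171, 136 and 92.1 CPM against 616, 522 and 717 CPM (-2.20 ± 0.35, adjusted p = 0.00199). Mtfp1, a mitochondrial fission factor, Slc13a3, a carrier of dicarboxylates, Fndc5, Ank1 and Pcp4l1 fell by 2.17 to 2.75 on the log2 scale. Of 14 nuclear receptor genes of energy metabolism, 2 fell, Esrra and Ppara, beside 1.57% of all genes. Ppara had 10.3, 25 and 13.8 CPM in KO P10 against 51.8, 54.5 and 95.3 CPM in Ctrl P10.

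**Figure D4:**
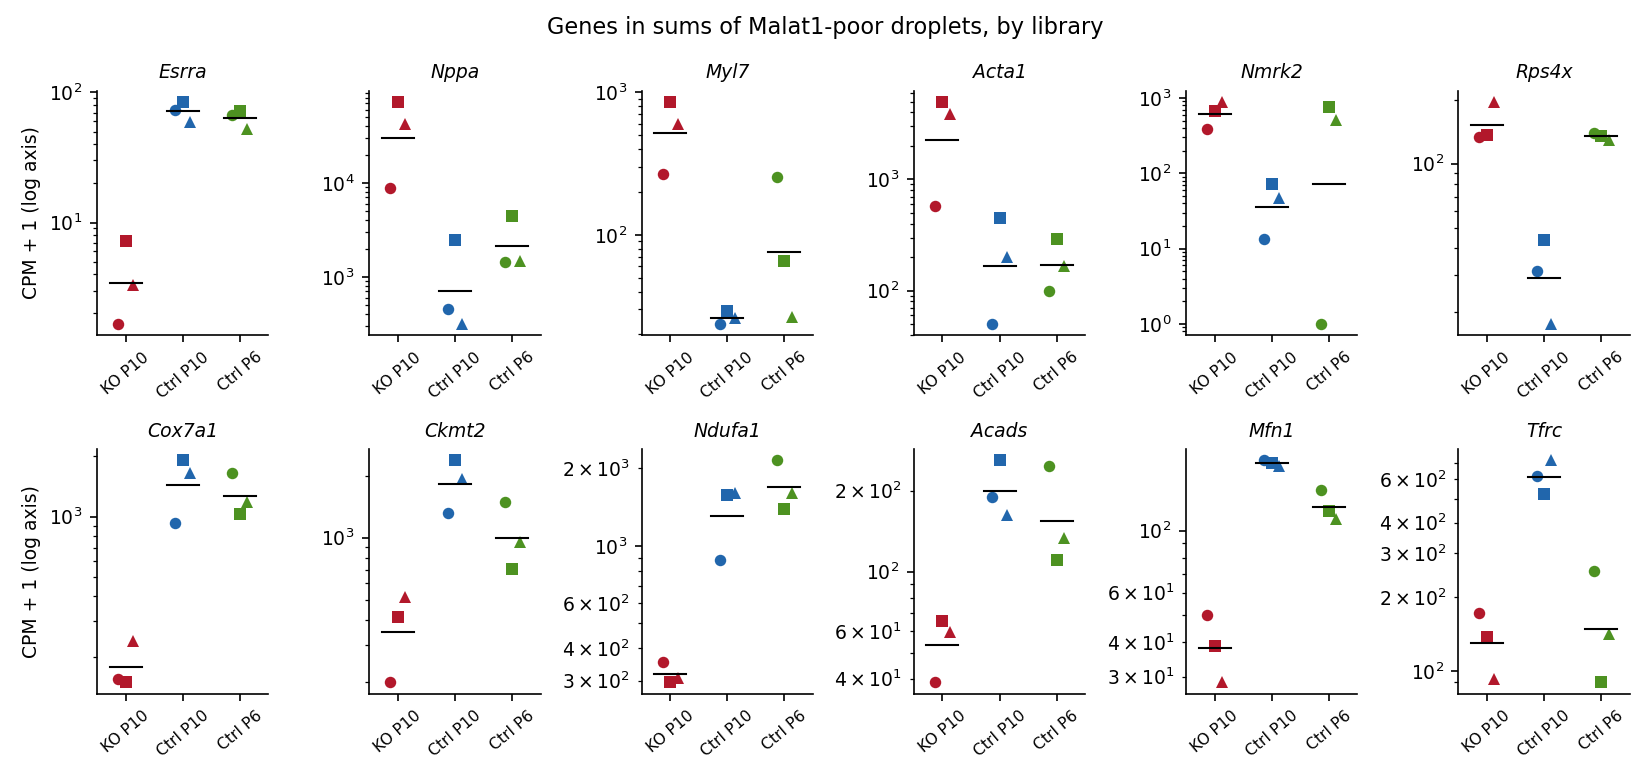
CPM + 1 (vertical axes, log scale) of 12 genes in Malat1-poor droplets of each library, with KO P10 left, Ctrl P10 in the middle and Ctrl P6 right; circle, square and triangle are libraries 1, 2 and 3, and lines are geometric means. Cox7a1 has 154 to 239 CPM in KO P10 and 929 to 1912 in Ctrl P10, and Nppa 8764 to 73069 CPM in KO P10 and 315 to 2448 in Ctrl P10.

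Fetal and load-responsive heart genes took 2.60%, 8.74% and 6.13% of UMIs in KO P10 Malat1-poor droplets, against 0.885%, 1.15% and 0.654% in Ctrl P10 ones. Of 19 members tested, 8 rose and 0 fell, beside 1.44% of all genes that rose, with a median log2 fold change of 1.68, and the 8 were 5 without Ctrl P10 3. Nppa, the atrial natriuretic hormone that stressed ventricles make again, had 8764, 73069 and 42682 CPM in KO P10 against 449, 2448 and 315 CPM in Ctrl P10 (5.27 ± 0.87, adjusted p = 0.00264). Gm13054, an antisense gene that overlaps Nppa on chromosome 4, rose by 5.67, and without a record of strand in the counting its reads and those of Nppa cannot be told apart. Myl7, an atrial light chain of myosin, had 266, 857 and 599 CPM against 22.7, 28 and 24.9 CPM (4.49 ± 0.61, adjusted p = 0.000735). Acta1, skeletal actin, which the fetal heart uses, had 574, 4999 and 3906 CPM against 49.2, 447 and 199 CPM (3.76 ± 0.72, adjusted p = 0.00705), and its call was lost without Ctrl P10 3. Nppb, the brain natriuretic hormone, rose by 3.06, and not without Ctrl P10 3 or without KO P10 2. Sln, an inhibitor of the calcium pump typical of atria, had 28, 3 and 0 UMIs in KO P10 against 4, 9 and 1 UMIs in Ctrl P10, too few to be tested. Ankrd1 and Myh7 of the same fetal theme had log2 fold changes of 1.20 and 1.28 and did not pass (adjusted p = 0.0964 and 0.122).

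Other named genes rose in KO P10 as well. Nmrk2, a kinase that starts NAD synthesis from nicotinamide riboside, had 384, 661 and 892 CPM in KO P10 against 12.6, 70.8 and 45.6 CPM in Ctrl P10 (3.93 ± 0.78, adjusted p = 0.00851), a call that DESeq2 did not make and that was lost without Ctrl P10 3. Slc16a3, a lactate carrier, had 98.6, 146 and 80.6 CPM against 3.79, 14.7 and 16.6 CPM (3.35 ± 0.50, adjusted p = 0.00127), and Krt18, a keratin, rose by 3.73. Mt2, a metal-binding metallothionein, rose by 3.23, Fhl1, a sarcomere-linked LIM protein, by 2.90 and Gdf15, a hormone released under cell stress, by 2.32. Synm, an intermediate filament protein, and Efhd2, which binds calcium, rose by 3.50 and 2.77. Fhl1 lost its call without Ctrl P10 3, and Synm without Ctrl P10 2, Ctrl P10 3 or KO P10 2. Of 16 glycolysis genes, 1 rose, Eno1 (0 without Ctrl P10 3), and 0 fell, beside 1.44% of all genes that rose.

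Cytosolic ribosomal proteins took 2.58%, 1.91% and 2.43% of UMIs in KO P10 Malat1-poor droplets, against 1.22%, 1.76% and 1.49% in Ctrl P10 ones. Of 66 members tested, 12 rose and 0 fell, beside 1.44% of all genes that rose, with a median of 0.69, and the 12 were 4 without Ctrl P10 3 or KO P10 3 and 7 without Ctrl P6 3. Rps4x had 132, 136 and 195 CPM in KO P10 against 30.3, 42.7 and 16.6 CPM in Ctrl P10 (2.26 ± 0.32, adjusted p = 0.000973), and Rpl6 139.6, 156 and 168 CPM against 31.6, 51.6 and 20.7 CPM (2.07 ± 0.33, adjusted p = 0.00199). Eef1a1, which brings aminoacyl-tRNA to the ribosome, rose by 1.56, and Eef1a2, its muscle and nerve form, fell by 1.31. Eef1a2 lost its call, among these alternatives, without Ctrl P10 3, KO P10 2 or KO P10 3. Near-identical pseudogenes can share reads with ribosomal protein genes and Eef1a1, so their counts are uncertain.

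Contractile, calcium and other cell type genes mostly did not pass. Of 30 sarcomere genes, 4 rose (Acta1, Myl7, Myl4 and Tpm2, of which the first 3 are also in the fetal list) and 0 fell. Their median was 0.55 over the list, beside 1.44% of all genes that rose and 1.57% that fell. The 4 were 10 without KO P10 1 and 2 without Ctrl P10 2, Ctrl P10 3 or KO P10 2. Of 23 calcium handling genes, 15 cardiomyocyte markers, 10 nuclear noncoding RNAs, 10 fibroblast, 11 endothelial, 9 macrophage and 7 erythroid markers, 0 passed in either direction, with medians of -0.33, -0.07, 0.26, 0.19, -0.41, 0.15 and 1.02. Of 6 pericyte and smooth muscle markers, Tagln rose and Rgs5 fell, of 22 extracellular matrix genes, Eln rose, of 17 genes of iron, antioxidant defence and lysosomes, Cd63, a membrane protein of late endosomes, rose, and of 12 immediate early and heat shock genes, the chaperones Hspb1 and Hsp90aa1 rose. Leaving out Ctrl P10 3 ended all 6 of these calls. Tagln and Eln were also lost without Ctrl P10 2, Eln and Rgs5 without KO P10 2, and Rgs5 without Ctrl P10 1, KO P10 3, Ctrl P6 2 or Ctrl P6 3. Of the 2 chaperones, 1 was lost without any 1 of Ctrl P10 2, KO P10 1, KO P10 3, Ctrl P6 2 and Ctrl P6 3. Abundant muscle genes that did not pass had log2 fold changes of 0.66 (Tnnt2), 0.58 (Myh6), 1.16 (Ttn), -0.23 (Mb) and -0.06 (Fabp3).

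Marker lists and library traits mostly overlapped between KO P10 and Ctrl P10. The erythroid list was 0.854% to 2.76% in KO P10 against 0.701% to 0.991% in Ctrl P10, with Hbb-bs among its leading genes. KO P10 2 was highest both in this list and in Nppa. KO P10 1 was next in the list but lowest of the KO P10 libraries in Nppa. The mt- genes took 5.9%, 18.5% and 7.87% of all UMIs of Malat1-poor droplets in KO P10 against 32.4%, 6.22% and 22.7% in Ctrl P10. Fibroblast markers were 2.08%, 0.515% and 0.83% against 1.41%, 0.602% and 0.798%, macrophage markers 0.0855%, 0.0291% and 0.0465% against 0.0676%, 0.0369% and 0.0496%, and endothelial markers 0.23%, 0.206% and 0.15% against 0.265%, 0.243% and 0.284%. The endothelial list was thus lower in every KO P10 library, and the other 3 lists and the mt- genes overlapped between the groups. Their part in the gene changes was not tested.

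**Figure D5:**
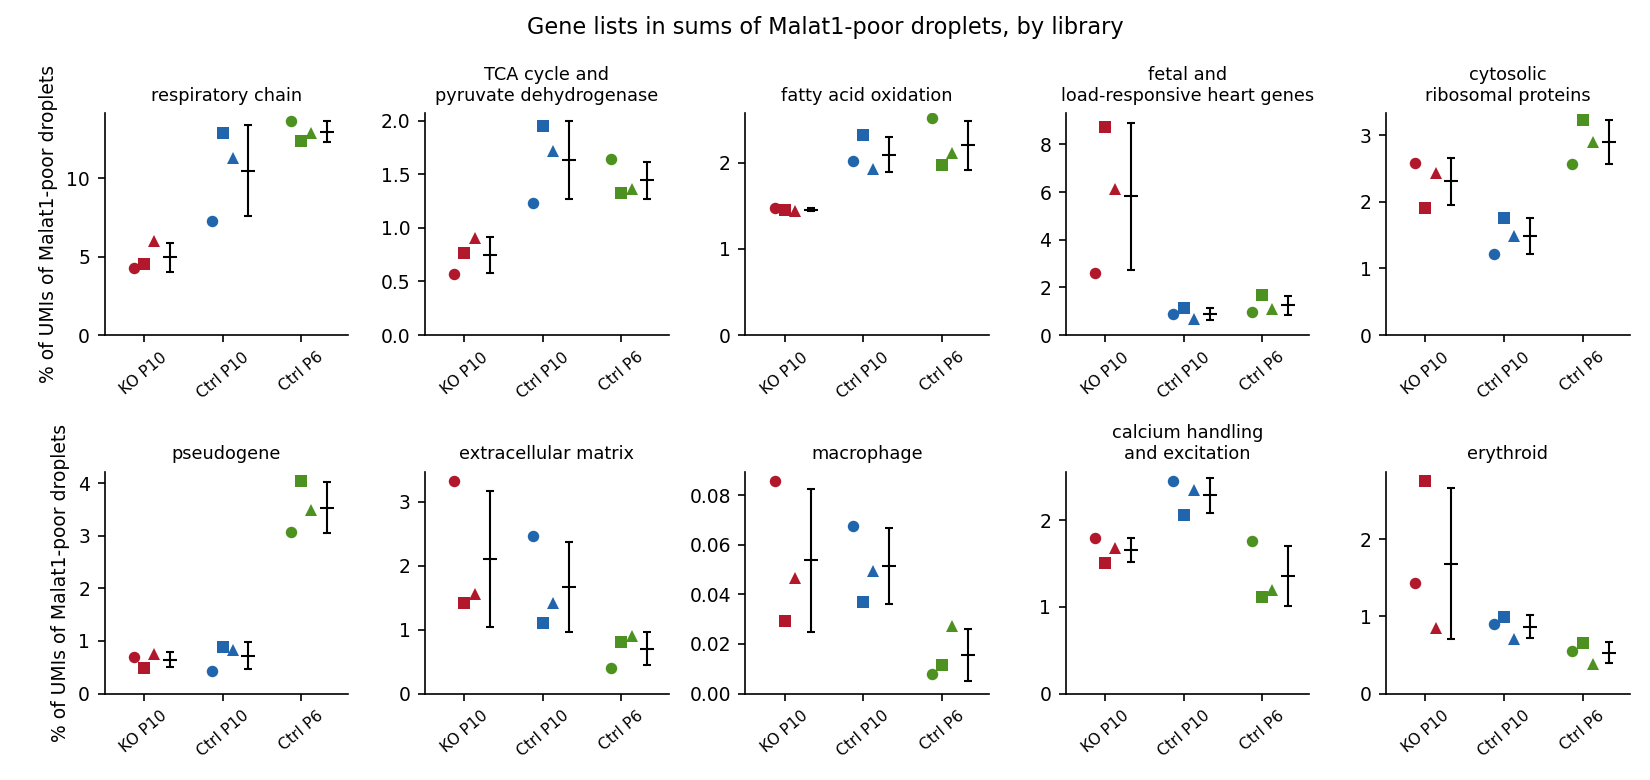
Percent of UMIs of Malat1-poor droplets (vertical axes) taken by 10 lists in each library, with KO P10 left, Ctrl P10 in the middle and Ctrl P6 right; points are libraries and bars mean ± SD (n = 3). The respiratory chain lies at 4.30% to 6.02% in KO P10, 7.29% to 12.9% in Ctrl P10 and 12.4% to 13.7% in Ctrl P6, and pseudogenes at 0.478% to 0.753% in KO P10, 0.431% to 0.893% in Ctrl P10 and 3.07% to 4.04% in Ctrl P6.

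The same genotype comparison in Malat1-rich droplets of the same libraries called 485 genes higher (3.53%) and 480 lower (3.49%) of 13755. Respiratory chain genes had a median log2 fold change of -0.92 in Malat1-poor and -0.40 in Malat1-rich droplets, TCA cycle genes -1.03 and -0.65, fetal genes 1.68 and 1.51, and ribosomal proteins 0.69 and 0.85. Cox7a1 had -3.05 and -2.27, Ckmt2 -2.33 and -1.66, and Nppa 5.27 and 5.42. The difference between the kinds of droplet was tested over 13996 genes with the library as a block, and 0 genes (0%) passed as higher and 0 (0%) as lower in edgeR. DESeq2 also called 0, and 351 and 325 genes had an unadjusted p under 0.05 in the 2 directions. Without Ctrl P10 1 or Ctrl P10 2, 7 and 6 genes passed. A genotype effect particular to Malat1-poor droplets was therefore not shown for any gene of the full set of libraries.

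Between postnatal day 6 and days 9 to 10, Malat1-poor droplets of control hearts came to hold less RNA listed as pseudogenes and as ribosomal proteins, and more RNA of some genes of ion handling, matrix and macrophages. Of 8800 genes, 155 (1.76%) were higher and 479 (5.44%) lower in Ctrl P10 than in Ctrl P6, with a median of 0.02. The 634 calls were 321 without Ctrl P6 2, 405 without Ctrl P6 3, 406 without Ctrl P10 1 and 999 without Ctrl P10 2. This comparison and the one with KO P10 share the Ctrl P10 libraries.

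Pseudogenes made up 0.431%, 0.893% and 0.835% of UMIs in Ctrl P10 Malat1-poor droplets, against 3.07%, 4.04% and 3.48% in Ctrl P6 ones. Of 270 tested, 229 fell and 0 rose, with a median log2 fold change of -2.90, and in Malat1-rich droplets 325 of 408 fell, with a median of -2.37. Gm12338, a processed pseudogene, had 35.4, 212 and 568 CPM in Ctrl P10 against 1597, 2068 and 1561 CPM in Ctrl P6 (-2.74 ± 0.58, adjusted p = 0.00496), and 19.8, 16.7 and 31.1 CPM in KO P10. Rps26-ps1 had 5.05, 25.1 and 16.6 CPM in Ctrl P10 against 205, 293 and 271 CPM in Ctrl P6. Of the 12 genes with the largest falls by the naming rule, 7 were annotated as pseudogenes, Gm7866, RP23-157N5.1 and Gm4604 were not matched to the annotation, and the other two were Xist and Actg2, a smooth muscle actin. Of 1981 genes under 10 kb tested, 370 fell and 18 rose, with a median of -0.38. Of 1528 genes of 100 kb or more, 35 fell and 52 rose, with a median of 0.23. Beside these, 5.44% of all genes fell and 1.76% rose. The counts by span include pseudogenes. Of 8235 protein coding genes, 226 fell and 153 rose, with a median of 0.05. A difference between the P6 and P10 libraries in the assignment of reads to near-identical copies was not tested.

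Cytosolic ribosomal proteins took 1.22%, 1.76% and 1.49% of UMIs in Ctrl P10 against 2.57%, 3.23% and 2.89% in Ctrl P6 Malat1-poor droplets. The groups did not overlap, as in some other lists named below. Of 66 members, 42 fell and 0 rose, beside 5.44% of all genes that fell, with a median of -1.30; the 42 were 24 without Ctrl P6 2 and 27 without Ctrl P10 1. Rps4x had 30.3, 42.7 and 16.6 CPM in Ctrl P10 against 139, 134 and 128 CPM in Ctrl P6 (-2.05 ± 0.34, adjusted p = 0.000633), while KO P10 had 132, 136 and 195 CPM. Eef1a1 had 134, 139 and 166 CPM in Ctrl P10 against 442, 528 and 463 CPM in Ctrl P6, and 6 of 14 translation factors fell (3 without Ctrl P6 2, Ctrl P6 3, Ctrl P10 1 or Ctrl P10 3). Of the respiratory chain, 9 of 78 fell and 0 rose, with a median of -0.38. Among these, Cox7c had 216, 451 and 526 CPM in Ctrl P10 against 1261, 1468 and 1399 CPM in Ctrl P6 (-1.81 ± 0.34, adjusted p = 0.00196). The 9 were 5 without Ctrl P6 2, Ctrl P6 3 or Ctrl P10 1, and 14 in DESeq2. Of 30 genes of fatty acid oxidation and of 14 of creatine kinases, myoglobin and ATP exchange, 0 passed, and of 23 TCA cycle genes Pdhb and Mpc1 fell (0 without Ctrl P6 3 or Ctrl P10 1, 1 without Ctrl P6 2 or Ctrl P10 3).

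Corin, which activates the atrial natriuretic hormone, had 227, 144 and 153 CPM in Ctrl P10 against 24.6, 36.6 and 34.1 CPM in Ctrl P6 (2.39 ± 0.35, adjusted p = 0.000234). Kcnd2, a potassium channel of repolarisation, had 129, 149 and 219.7 CPM against 16.4, 41.9 and 19.2 CPM (2.49 ± 0.45, adjusted p = 0.00141). Mylk4, a kinase of the myosin light chain family, had 231, 152 and 166 CPM against 8.19, 29.6 and 25.6 CPM (2.89 ± 0.40, adjusted p = 0.000171). Atp2a2, the calcium pump of the sarcoplasmic reticulum, had 8612, 6213 and 7220.5 CPM against 4282, 2155 and 2581 CPM (1.29 ± 0.38, adjusted p = 0.0421), a call lost without Ctrl P6 2, Ctrl P6 3, Ctrl P10 1 or Ctrl P10 3. It was 1 of 4 of 23 calcium handling genes that rose, beside 1.76% of all genes. The 4 were 1 without Ctrl P6 2 or Ctrl P6 3, 2 without Ctrl P10 3, 8 without Ctrl P6 1 or KO P10 2, and 9 without Ctrl P10 2 or KO P10 1. The other members that rose were Kcnd2, Hrc and Cacna2d1, of which Hrc and Cacna2d1 lost their calls without Ctrl P10 1, Ctrl P6 2 or Ctrl P6 3. Hrc was also lost without Ctrl P10 3 and in cardiomyocyte-led droplets. Ppargc1a, the coactivator that works with the ERRs, had 366, 283 and 232 CPM against 147, 138 and 141 CPM (1.07 ± 0.31, adjusted p = 0.0433), a call lost without any 1 of the 3 Ctrl P6 libraries or Ctrl P10 1. Rxrg and Nrip1, partners of nuclear receptors, also rose of these 14 genes, beside the same 1.76% of all genes. Of the 3, 0 were called without Ctrl P6 2 or 3 and 1 without Ctrl P10 1. Tnni1, the fetal troponin I, fell to 393, 405 and 257 CPM in Ctrl P10, against 1646, 1521 and 1623 CPM in Ctrl P6 (-2.17 ± 0.31, adjusted p = 0.000217). Tfrc had 616, 522 and 717 CPM in Ctrl P10 against 254, 88.9 and 141 CPM in Ctrl P6 (2.04 ± 0.36, adjusted p = 0.00118).

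RNA of matrix, fibroblasts and macrophages was higher in Ctrl P10 Malat1-poor droplets. Extracellular matrix genes took 2.46%, 1.11% and 1.42% of UMIs in Ctrl P10 against 0.406%, 0.806% and 0.895% in Ctrl P6, fibroblast markers 1.41%, 0.602% and 0.798% against 0.173%, 0.413% and 0.453%, and macrophage markers 0.0676%, 0.0369% and 0.0496% against 0.00773%, 0.0115% and 0.0273%. No library of Ctrl P10 fell within the range of Ctrl P6 in any of these lists. This was not particular to them. Ribosomal proteins, translation factors, calcium handling, nuclear receptors, and pericyte and erythroid markers were also separated. Lists such as the respiratory chain and fatty acid oxidation overlapped. Of 22 matrix genes 10 rose, of 10 fibroblast markers 4, and of 9 macrophage markers 6, beside 1.76% of all genes, with medians of 1.19, 1.35 and 1.96. Ogn, a matrix proteoglycan, had 461, 255 and 377 CPM in Ctrl P10 against 40.9, 94.2 and 100.2 CPM in Ctrl P6 (2.10 ± 0.36, adjusted p = 0.000928), and Mrc1, the mannose receptor of tissue macrophages, 149, 54.5 and 108 CPM against 8.19, 15.7 and 4.27 CPM (3.34 ± 0.53, adjusted p = 0.000457). The matrix and fibroblast counts were 0 and 0 without Ctrl P10 1, 1 and 1 without Ctrl P6 1, 2 and 1 without Ctrl P6 2, 1 and 0 without Ctrl P6 3, 5 and 2 without Ctrl P10 3, and 16 and 7 without KO P10 1, which enters through the shared estimate of spread. The macrophage count was 3 without Ctrl P10 1 and 2 without Ctrl P6 2. In cardiomyocyte-led droplets alone the 3 counts were 18, 8 and 8. Of 6 pericyte and smooth muscle markers 3 rose, and 0 without Ctrl P6 2 or Ctrl P6 3, and of 11 endothelial markers Egfl7 fell. Platelet Pf4 and erythroid Alas2 also rose, 1 of 1 and 1 of 7 members, and Alas2 not without any 1 of the Ctrl P6 libraries or Ctrl P10 1.

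Library traits differed between the ages too. The mt- genes took 32.4%, 6.22% and 22.7% of all UMIs of Malat1-poor droplets in Ctrl P10 against 7.42%, 2.18% and 1.26% in Ctrl P6. Erythroid RNA was 0.701% to 0.991% against 0.381% to 0.654%. Xist, made from the inactive X chromosome of female cells, had 36.6, 0 and 0 CPM in Ctrl P10 against 73.7, 276 and 379.6 CPM in Ctrl P6 Malat1-poor droplets, and 178, 4.17 and 1.15 CPM in KO P10. Sex is not given in the labels, the libraries differed in it by this gene, and the part of sex, mt- genes and erythroid RNA in the age comparison was not tested.

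In Malat1-rich droplets the age comparison called 1323 genes higher (9.62%) and 1529 lower (11.1%) of 13755. The difference of the age effect between the kinds of droplet passed for 16 genes in the positive (0.114%) and 13 in the negative direction (0.0929%) of 13996. Tfrc had log2 fold changes of 2.04 in Malat1-poor and 0.59 in Malat1-rich droplets, a difference of 1.69 ± 0.32 in the joint fit (SE, adjusted p = 0.00858). Ppp1r14c, an inhibitor of protein phosphatase 1, had -0.87 and 1.07, a difference of -1.80 ± 0.29 (adjusted p = 0.00164). Gas5 had -0.59 and -1.90, a difference of 1.49 ± 0.28 (adjusted p = 0.00858). Mgp, a matrix protein that inhibits calcification, had 1.48 and -0.13, a difference of 1.77 ± 0.36 (adjusted p = 0.0185). With RLE size factors 18 were positive and 41 negative. The 29 calls were 8 without Ctrl P6 2 and 456 without Ctrl P10 2.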

How the data were processed

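The authors deposited 1 table per library of raw counts (UMIs) per gene and barcode, 3000 barcodes in each P6 table and 4000 in each P10 table. Exonic and intronic reads were counted together, per the names of the deposited tables. The submitters' processing notes name the aligner STAR 2.5.2a and the build mm10. The counting annotation, its use of strand and the choice of barcodes are not given in the sources used here. Gene spans and biotypes came from GENCODE vM21 (GRCm38), matched by symbol for 35478 of 37810 genes.

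The members, gene lists and tests were chosen with earlier results of these data known. Shares are UMIs of a list over all UMIs of a library's droplets outside mt- genes and Malat1, and mt- shares are over all UMIs. UPM (UMIs per 1000000) describe Malat1-poor against Malat1-rich droplets, as mean log2 ratios over libraries with a pseudocount of 5 UPM. For tests, counts were summed per library and kind of droplet without Malat1 and mt- genes, filtered with filterByExpr and fitted with edgeR 4.0.16 (quasi-likelihood, TMM, all 9 libraries in 1 fit) in R 4.3.3, with Benjamini-Hochberg adjustment over all genes tested. Differences of an effect between the kinds of droplet were fitted on 18 sums with the library as a block. Shares of droplets were compared with an exact permutation test over libraries (scipy 1.17.1). Named genes were up to 12 per direction and comparison by size of change, among those with adjusted p under 0.05, at least 100 CPM in the higher group and no overlap between groups. Members of the lists that passed and up to 4 others per list by CPM could also be named. So could the 10 genes with the most UMIs and the 12 with the largest ratio per group. For these 12, at least 200 UPM were needed in the Malat1-poor sum of each library of the group. Sln was added after its values were seen. A few genes that met the rule are not reported here. The tests were tried on simulated counts.

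Alternatives were DESeq2 1.42.0, RLE size factors, no filter on low counts, Malat1 limits of 1% and 2%, a minimum of 1000 UMIs, for shares of droplets the 3000 barcodes with the most UMIs, shared barcodes kept, cardiomyocyte-led droplets, a replicate block and leaving out each library. Doublets were not removed; an alternative left out the 5% highest Scrublet scores (scanpy 1.11.5) of each library. List counts under each alternative were chosen after seeing the data.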

Additional observations from a re-analysis of the deposited data

Results flagged for a closer look

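In 10 genes the change with age in control hearts differed between Malat1-poor and Malat1-rich droplets by a test of the difference itself, and met the rule for named genes. Each value here is the log2 fold change of Ctrl P10 over Ctrl P6 in Malat1-poor droplets minus that in Malat1-rich droplets, from edgeR's joint fit, with its SE and adjusted p over 13996 genes. A call was looked for again under 18 alternatives.

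The difference was positive for 7 genes. It was 1.77 ± 0.36 for Mgp (adjusted p = 0.0185), a matrix inhibitor of calcification, which had 589.6, 301 and 365 CPM in Ctrl P10 against 57.3, 227 and 136 CPM in Ctrl P6 Malat1-poor droplets, and 225, 380.0 and 259 against 231, 344 and 371 CPM in Malat1-rich ones, a call lost without Ctrl P6 3 or Ctrl P10 3. It was 1.76 ± 0.40 for Mfap4 (0.0423), a microfibril protein, and 1.47 ± 0.32 for Ogn (0.0314), each lost under 7 alternatives. It was 1.69 ± 0.32 for Tfrc (0.00858), lost with at least 1000 UMIs and without Ctrl P6 2. It was 1.49 ± 0.28 for Gas5 (0.00858), with 160.4, 215 and 162 CPM in Ctrl P10 against 246, 259.8 and 303 CPM in Ctrl P6 Malat1-poor droplets, and 70.3, 149 and 107 against 273, 442 and 516 CPM in Malat1-rich ones, a call lost without Ctrl P6 2 or Ctrl P6 3. It was 1.46 ± 0.31 for Lamb2 (0.0265), a laminin of basement membranes, and 1.42 ± 0.30 for Apoe (0.03), a lipid carrier, each lost under 5 alternatives.

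The difference was negative for 3 genes. It was -1.80 ± 0.29 for Ppp1r14c (0.00164), with 249, 299 and 282 CPM in Ctrl P10 against 622, 449.9 and 461 CPM in Ctrl P6 Malat1-poor droplets, and 459, 290.1 and 338 against 186, 154 and 175 CPM in Malat1-rich ones, a call kept under every alternative run. It was -1.50 ± 0.32 for Sarnp (0.03), which takes part in the export of messenger RNA, and -1.37 ± 0.29 for Mapre2 (0.0272), which binds microtubule ends, each lost under 3 alternatives. Mgp is itself a member of the list of fibroblast markers, and Mfap4 and Ogn are expressed with such markers in many tissues. These markers made up 0.938% ± 0.424 of UMIs in Ctrl P10 and 0.346% ± 0.151 in Ctrl P6 Malat1-poor droplets (SD, n = 3 libraries each), and 0.648% and 0.605% in Malat1-rich ones. Their part in these differences was not tested.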

How the results depend on the processing

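Group differences in the lists' shares of UMIs moved by less than the larger group SD in 520 of 520 values. These came from other Malat1 limits, 1000 UMIs, shared barcodes kept or 1 library left out. Leaving out 1 of 3 libraries cannot move a group mean by as much as its SD. The values with 1 library left out could therefore not fail, and they say nothing on stability. Named genes kept direction and call in 3395 values under alternatives, lost the call in 566 and reversed in 0. Values with no adjusted p were left out of these counts. The genes were chosen because they were called in the main fit, so a reversal was unlikely. The counts are therefore no test of stability. The cause of the following moves was not tested, apart from fewer or more genes or samples where an alternative sets them. KO P10 against Ctrl P10 in Malat1-poor droplets gave 265 calls, 412 with no filter, 500 with shared barcodes kept, 400 with the replicate block and 85 to 472 without 1 library. Ctrl P10 against Ctrl P6 gave 634, 1144 with no filter and 321 to 999 without 1 library. In Malat1-rich droplets the genotype comparison gave 965, 1494 with no filter and 137 to 1141 without 1 library, and the age comparison 2852, 1810 with at least 1000 UMIs and 1248 to 3384 without 1 library. The genotype difference between kinds of droplet gave 0, 3 with no filter and 0 to 7 without 1 library. The age difference gave 29, 59 with RLE size factors (18 positive and 41 negative, against 16 and 13), 64 with no filter, 86 with Malat1 under 1%, 68 under 2%, 83 with at least 1000 UMIs, 108 in cardiomyocyte-led droplets and 8 to 456 without 1 library. The percent of Malat1-poor droplets differed by 6.79 to 21.9 points between KO P10 and Ctrl P10 without 1 library, and by -0.737, a reversal without Ctrl P10 1, to 9.48 points between Ctrl P10 and Ctrl P6. Correlations of same-numbered libraries' deviations ran from -0.119 to 0.358, and those of differently numbered libraries from -0.383 to 0.35. The highest was that of Ctrl P10 1 with KO P10 1. Whether library numbers pair the libraries was not settled by these values. The replicate block left the other counts near the main ones, at 627, 1129 and 3019. With it the percent differences of 15.7 and 5.21 points had exact p of 0.25 and 1. The difference fits hold the library as a block already. Depth limits single genes: Ctrl P6 1 gave 129406 UMIs in 86 Malat1-poor droplets.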
